A study of Mus musculus with 20 samples.

Results

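The genes described here are the cytochrome P450 genes of the deposited count table, in colonic intestinal epithelial cells (IECs) of male C57BL/6NCrl mice. They were taken by their symbol, as protein coding rows with a Cyp symbol made of a family number, a subfamily letter and a gene number, a rule that uses no measured value but was set with earlier results of these data known. The table held 36 such genes among 15876 rows. They fell into 7 families, with 21 genes in family 2, 3 in family 3, 8 in family 4 and 1 each in families 20, 26, 27 and 39, and into 17 subfamilies. Str mice (10 libraries) were adults that met an aggressive older male in the home cage on 6 d, for 2 h/d, the social disruption stressor. Con mice (10 libraries) stayed undisturbed in their cages, and all 20 mice were of the same strain and sex with no other treatment in the labels. IECs (EpCAM+, CD45-) were taken with magnetic beads from the colon the morning after the last session, 1 library per mouse. The beads retain any cell that carries EpCAM, and cage mates were not named, so the tests take all mice as independent.

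Cytochrome P450 enzymes carry a haem group and use oxygen and electrons from a reductase to add an oxygen atom to fatty compounds. Those of families 2 and 3 mostly act on drugs, plant compounds, steroids and arachidonic acid. Those of family 4 act mostly on the far end of fatty acids and of the inflammatory lipid leukotriene B4. The remaining families have narrow tasks, such as the breakdown of retinoic acid or the building of bile acids. In the gut these enzymes lie in the epithelium, where they meet food compounds and bacterial products.

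Library totals were 20390091 to 24508215 counts in Str (median 22680672) and 20034127 to 26141352 in Con (median 23676345.5). Levels are CPM, a gene's share of the library's counts with library sizes scaled by TMM, and a gene is called at an adjusted p under 0.05 from the quasi-likelihood test of edgeR, adjusted over all 15876 genes by Benjamini-Hochberg. Log2 fold changes are Str over Con. Library names give the group (S or C), a letter V or L of unstated meaning, 5 of each per group, and a number. The 13 colonocyte markers summed to 21560 to 25290 CPM in Str and 20310 to 26210 CPM in Con. Of these, 2 were called higher (15.4%, against 8.94% of all genes) and 1 lower (7.69%, against 7.72%). *Car1* was lower, at 1023 to 3713 CPM in Str and 1673 to 5961 CPM in Con (log2 fold change -0.78, adjusted p = 0.0166, edgeR). SL4 and SL5 were its highest Str libraries (3713 and 3396 CPM). Hepatocyte transcripts were present in 4 Con libraries (CV3, CV4, CV6 and CL1), with *Alb* at 69.3 to 79.9 CPM against 1.64 to 3.19 CPM in the other 16 libraries. P450 enzymes abound in liver. The ratio of the mean in these 4 libraries to that in the other Con libraries was highest for *Cyp2c67* (1.76), *Cyp2r1* (1.45), *Cyp2c44* (1.36), *Cyp4f39* (1.32), *Cyp4v3* (1.26) and *Cyp2f2* (1.26), and it was 1.21 for *Cyp2c68*, the highest of the called genes. Without these libraries the log2 fold change was -0.15 for *Cyp2c67*, 0.33 for *Cyp2r1*, -0.17 for *Cyp2c44*, -0.04 for *Cyp4f39*, -0.12 for *Cyp4v3* and -0.09 for *Cyp2f2*, none of them called in edgeR with or without them. The Str libraries SL4 and SL5 stood apart from the other 8 Str libraries for many of the genes below.

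More P450 genes fell in Str IECs than rose. Of the 36 genes, 10 fell, which is 27.8% of them against 7.72% of all genes. Another 3 rose, which is 8.33% against 8.94% of all genes, and 23 did not pass in edgeR. In either direction 36.1% of the 36 genes were called, against 16.7% of all genes. The genes that fell were *Cyp4f16*, *Cyp3a13*, *Cyp2c69*, *Cyp2c55*, *Cyp2j9*, *Cyp2s1*, *Cyp4f13*, *Cyp2c65*, *Cyp2c68* and *Cyp2j6*, in the order of their p. The genes that rose, *Cyp2d9*, *Cyp2d10* and *Cyp2d34*, belong to 1 cluster. The log2 fold change was negative for 30 of the 36 genes (83.3%, against 51.0% of all genes), and its median was -0.31 over the 36 genes and -0.0042 over all genes. Among called genes the median was -0.59 for the P450 genes that fell, against -0.29 for all genes that fell, and 0.43 for those that rose, against 0.30 for all genes that rose. In bulk RNA, fewer cells of a type and less RNA per cell cannot be told apart.

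**Figure D1:**
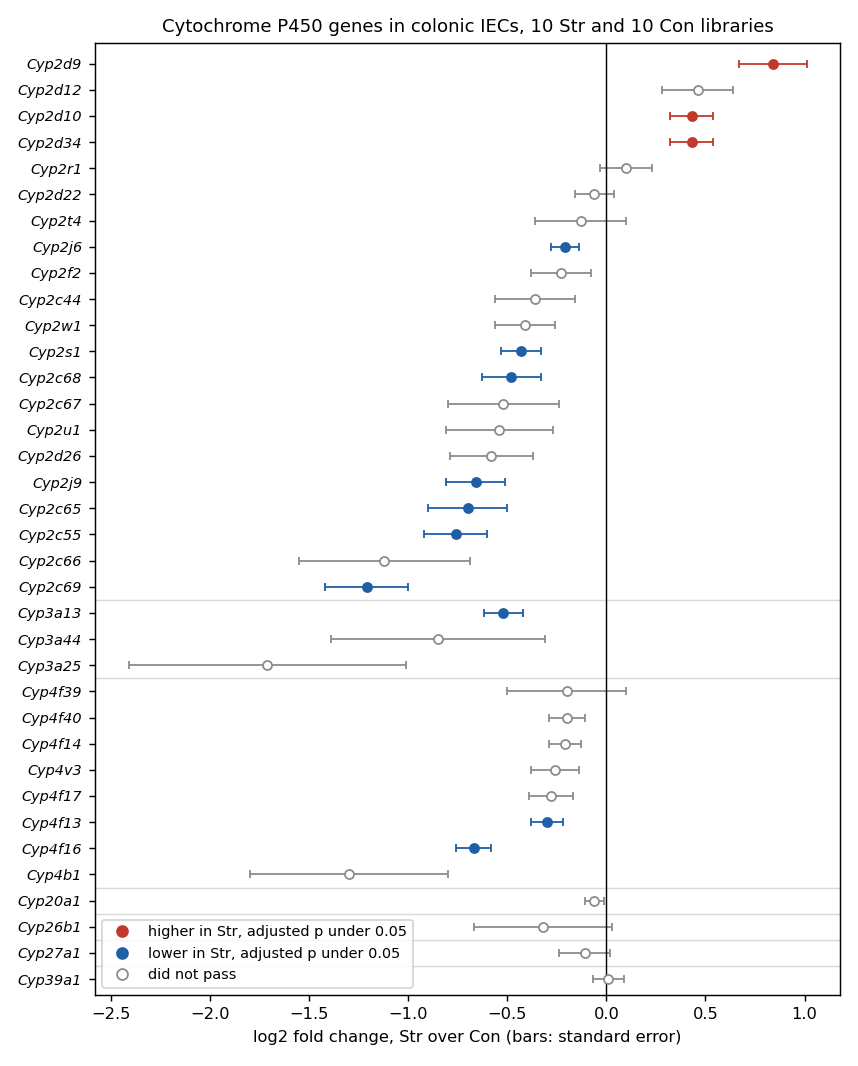
Log2 fold change (Str over Con, edgeR, 10 libraries each) on the horizontal axis for each of the 36 genes, with bars of 1 standard error and lines between the families. The 10 filled blue points lie left of 0 and the 3 filled red points, all of them Cyp2d genes, lie right of it.

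The same counts were 3 and 11 in DESeq2 (against 10.3 and 8.43% of all genes) and 4 and 16 in limma-voom (10.5 and 10.7%). Without the 4 Con libraries with hepatocyte transcripts, edgeR called 3 higher and 9 lower, against 5.38 and 3.83% of all genes. *Cyp2c68* (log2 fold change -0.36, adjusted p = 0.198) and *Cyp2j6* (adjusted p = 0.0750) were then no longer called and *Cyp4f14* was (log2 fold change -0.29, adjusted p = 0.0474, edgeR). Without the Str library SL5, edgeR called 3 higher and 19 lower, against 9.87 and 10.1% of all genes. At the thresholds of the study, an adjusted p under 1e-05 and a log2 change over 0.5, edgeR called 0 of the 36 genes, against 0.0315% (higher) and 0% (lower) of all genes, with 4 of the 36 higher and 19 lower where p under 0.05 was not adjusted, against 14.8 and 15.5% of all genes. DESeq2 called 0 higher and 2 lower at these thresholds, against 1.1 and 0.126% of all genes.

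The Cyp2c genes gave most of the summed CPM of the 36 genes in every library, and 4 of the 7 measured fell. *Cyp2c55*, an enzyme of the mouse colon that oxidises arachidonic acid and linoleic acid, was the most abundant of the 36 per kilobase of exon, at 961 ± 360 CPM per kb in Str and 1626 ± 266 CPM per kb in Con (mean ± SD, n = 10 each). The gene spans bases 39007019 to 39042693 of chromosome 19 (GRCm38). It had a lowest, median and highest level of 1141, 1707 and 3544 CPM in Str libraries, against 2347, 3078 and 4033 CPM in Con libraries. The 8 Str libraries other than SL4 and SL5 lay below every Con library, and these 2 lay within the Con range. The log2 fold change was -0.76 (SE 0.16, adjusted p = 0.00226, edgeR). *Cyp2c55* gave 49.4 to 72.9% of the summed CPM of the 36 genes in Str and 62.1 to 74.6% in Con. The other 35 genes together summed to 1072, 1221 and 1517 CPM in Str (lowest, median, highest) and to 1267, 1386 and 1562 CPM in Con.

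*Cyp2c65*, which is expressed mainly in the gut, measured 49.99, 94.0 and 170 CPM in Str libraries (lowest, median, highest) and 90.2, 157 and 261 CPM in Con libraries (log2 fold change -0.70, SE 0.20, adjusted p = 0.0183, edgeR). Its neighbour *Cyp2c66* was near the detection limit, at 0.093 to 2.28 CPM in Str and 0.441 to 2.59 CPM in Con, and did not pass (-1.12, adjusted p = 0.0792). Their longest transcripts share letter for letter 7.8 and 8.6% of their stretches of 100 bases, so that some reads could go to either gene. Both groups overlapped for both genes.

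*Cyp2c69* had the largest fall of a called P450 gene, to 2.98 ± 1.30 CPM in Str, against 6.90 ± 1.91 CPM in Con (n = 10 each). The Str libraries ran from 1.32 to 5.15 CPM (median 2.67) and the Con libraries from 4.42 to 11.3 CPM (median 6.75), with 8 of 10 Str libraries below all Con libraries. On the log2 scale *Cyp2c69* fell by 1.21 (SE 0.21, adjusted p = 0.000518, edgeR), and SV5 and SL4 were the Str libraries inside the Con range. *Cyp2c68*, the nearest measured gene on chromosome 19 (39688834 to 39741054, minus strand), was far more abundant, at 35.6 CPM per kb in Str and 49.5 CPM per kb in Con, against 1.75 and 4.04 CPM per kb for *Cyp2c69*. Its levels were 36.2, 60.8 and 89.9 CPM in Str (lowest, median, highest) and 61.2, 78.1 and 124 CPM in Con (log2 fold change -0.48, SE 0.15, adjusted p = 0.0304, edgeR). The call of *Cyp2c68* was lost without CV1, CV3, CV4, SV1, SL2 or SL6 (adjusted p = 0.0507 to 0.0646, edgeR). *Cyp2c69* shares 29.5% and *Cyp2c68* 16.7% of their stretches of 100 bases with *Cyp2c40*, so the split of reads among these copies is uncertain.

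The 250 bases before the RefSeq start of *Cyp2c69* and *Cyp2c68* (GRCm38.p6) are shown because their windows are the most alike of the Cyp2c pairs. A tie of these sequences to the fold changes was not tested. The windows span chr19:39886770-39887019 and chr19:39741102-39741351, both on the minus strand. Capitals mark bases that differ from, or are missing in, the other gene after alignment (14 mismatches and 8 gap positions, 91.3% identity).
*Cyp2c69*: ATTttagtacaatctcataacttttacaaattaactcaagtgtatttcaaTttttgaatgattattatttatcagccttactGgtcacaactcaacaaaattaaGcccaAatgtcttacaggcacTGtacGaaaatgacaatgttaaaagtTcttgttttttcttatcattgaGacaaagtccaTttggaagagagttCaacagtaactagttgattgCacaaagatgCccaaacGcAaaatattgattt
*Cyp2c68*: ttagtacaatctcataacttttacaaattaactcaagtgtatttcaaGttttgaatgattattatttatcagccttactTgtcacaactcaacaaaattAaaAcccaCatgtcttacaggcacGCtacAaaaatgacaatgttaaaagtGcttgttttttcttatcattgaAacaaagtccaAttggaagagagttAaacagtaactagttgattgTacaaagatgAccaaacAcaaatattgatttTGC
The motif TNGCGTG, the core site of the xenobiotic receptor Ahr with its partner Arnt, was searched on both strands of the 300-base windows (250 before to 50 after the start). It matched in *Cyp2c68* alone, as CACGCTA starting 130 bases before the start, among 29 of the 36 genes with a window, and in 5.07% of 32851 mouse windows. The direct repeat of nuclear receptors, AGGTCA given again after 1 base, matched in 0 of these 29 genes and in 0.0396% of all windows.

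The other Cyp2c genes were at low levels and did not pass. *Cyp2c67* measured 0.171 to 0.796 CPM in Str and 0.202 to 1.18 CPM in Con (log2 fold change -0.52, adjusted p = 0.213). *Cyp2c44*, named *Cyp2c23* in later annotation and an arachidonic acid epoxygenase of mouse kidney, measured 0.341 to 1.12 CPM in Str and 0.665 to 1.35 CPM in Con (-0.36, adjusted p = 0.226, edgeR). All 7 Cyp2c genes had a negative log2 fold change.

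In contrast, the P450 genes that rose were all Cyp2d genes, a subfamily known for drug metabolism through its human member CYP2D6. *Cyp2d34* was the most abundant of them and second of the 36 genes per kilobase, at 120 ± 20.5 CPM per kb in Str and 89.3 ± 18.4 CPM per kb in Con. It measured 233, 332 and 415 CPM in Str (lowest, median, highest), against 182, 243 and 332 CPM in Con, and 5 of 10 Str libraries exceeded every Con library. The log2 fold change of *Cyp2d34* was 0.43 (SE 0.11, adjusted p = 0.0113, edgeR).

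*Cyp2d9*, known as a steroid hydroxylase of male mouse liver, had the largest rise. Its level was 16.7 ± 5.61 CPM in Str and 9.35 ± 2.27 CPM in Con (log2 fold change 0.84, SE 0.17, adjusted p = 0.00173, edgeR). The Str libraries of *Cyp2d9* ranged from 8.09 (SL4) to 28.4 CPM (SL1) with a median of 16.4, and the Con libraries from 7.19 (CV3) to 13.6 CPM (CL4) with a median of 8.71. *Cyp2d10* measured 24.3, 31.4 and 44.7 CPM in Str (lowest, median, highest) and 17.1, 23.7 and 30.0 CPM in Con (log2 fold change 0.43, SE 0.11, adjusted p = 0.00762, edgeR). For *Cyp2d9* and for *Cyp2d10*, 7 of 10 Str libraries exceeded every Con library, and SL4 was the lowest Str library for all 3 genes that rose. These calls held with any 1 library left out and without the 4 Con libraries, where the adjusted p was 0.0149 for *Cyp2d9*, 0.0385 for *Cyp2d10* and 0.0477 for *Cyp2d34* (edgeR).

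The Cyp2d genes with a positive log2 fold change lie side by side among the measured genes of the cluster on chromosome 15. From low to high coordinate these are *Cyp2d22*, *Cyp2d10*, *Cyp2d9*, *Cyp2d12*, *Cyp2d34* and *Cyp2d26*, from 82370527 to 82794294 of GRCm38. The 4 inner genes had log2 fold changes of 0.43, 0.84, 0.46 and 0.43, of which that of *Cyp2d12* did not pass (SE 0.18, adjusted p = 0.0888, edgeR). *Cyp2d12* measured 33.8 to 72.4 CPM in Str and 25.9 to 69.1 CPM in Con, and CV4 was the highest of the Con libraries, without which the gene was called (adjusted p = 0.0206, edgeR), as it was without SL4 (0.0495). The outer genes did not pass either. *Cyp2d22*, often named the mouse counterpart of CYP2D6, measured 17.3 to 27.4 CPM in Str and 15.6 to 29.9 CPM in Con (log2 fold change -0.06, SE 0.10, adjusted p = 0.728). *Cyp2d26* had one of -0.58 (SE 0.21, adjusted p = 0.0565), with 5.21 to 18.6 CPM in Str and 7.91 to 19.8 CPM in Con, and its call depended on the libraries, since it passed without CL1 (adjusted p = 0.0386), CL2 (0.0389) or SL5 (0.00232, edgeR). The order of the changes was noticed after the values were seen and was not tested.

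**Figure D2:**
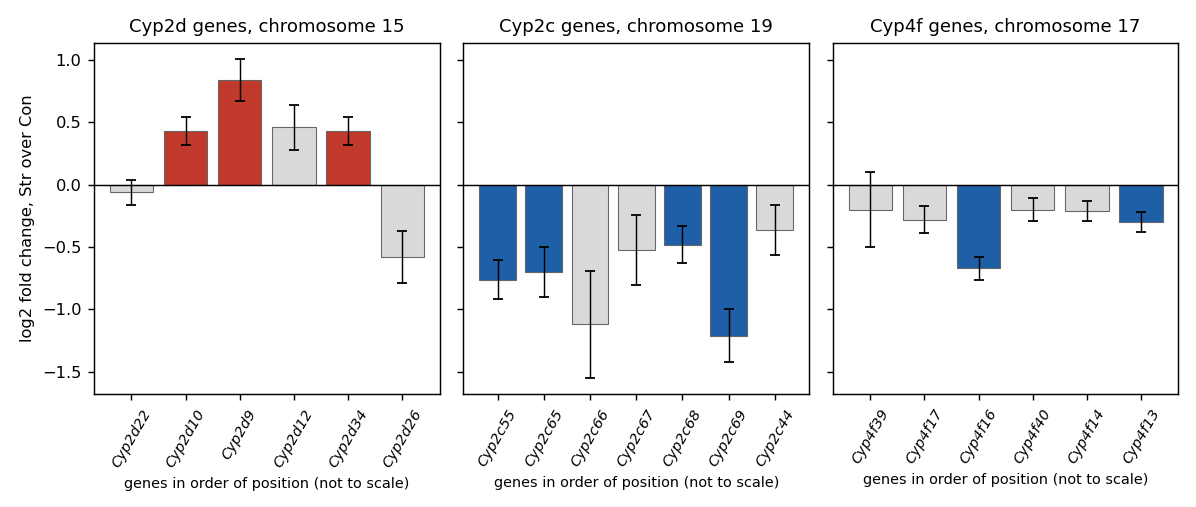
Log2 fold change (Str over Con, edgeR, bars of 1 standard error) of the Cyp2d, Cyp2c and Cyp4f genes in their order on chromosomes 15, 19 and 17, with red for higher, blue for lower and grey for not passed. The 4 inner Cyp2d bars stand above 0, from 0.43 to 0.84, while all 7 Cyp2c and all 6 Cyp4f bars point down (*Cyp2c44* lies apart from the other Cyp2c genes on the chromosome).

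The upstream 250 bases of the pair of neighbours that rose are given for comparison (RefSeq, GRCm38.p6), at chr15:82452127-82452376 on the plus strand and chr15:82407195-82407444 on the minus strand. The RefSeq gene span of *Cyp2d10* reaches 82407253, so part of the bases printed for it lie inside that span. Capitals again mark bases that differ from, or are missing in, the partner (32 mismatches and 12 gap positions, 82.8% identity).
*Cyp2d9*: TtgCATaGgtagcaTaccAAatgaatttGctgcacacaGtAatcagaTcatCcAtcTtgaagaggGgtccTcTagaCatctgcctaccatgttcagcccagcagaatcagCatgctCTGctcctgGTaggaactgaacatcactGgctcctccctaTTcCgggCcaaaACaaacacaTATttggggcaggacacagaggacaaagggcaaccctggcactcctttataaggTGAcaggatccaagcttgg
*Cyp2d10*: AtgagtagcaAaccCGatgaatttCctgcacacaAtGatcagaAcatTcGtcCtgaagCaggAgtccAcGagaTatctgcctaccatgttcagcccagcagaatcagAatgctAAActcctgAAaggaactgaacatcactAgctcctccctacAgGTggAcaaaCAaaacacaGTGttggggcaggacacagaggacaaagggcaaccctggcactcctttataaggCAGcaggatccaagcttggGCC
Over the whole 300-base windows, *Cyp2d9* and *Cyp2d10* were 83.3% identical. *Cyp2d26*, which did not pass, was 53.6% identical to *Cyp2d9* and 54.0% to *Cyp2d10*. *Cyp2d12*, *Cyp2d22* and *Cyp2d34* had no window and could not be compared. A tie between upstream sequence and direction of change was not tested. Over the 15 pairs of Cyp2c windows the identity ran from 48.9 to 91.1% with a median of 53.9%. Transcripts of *Cyp2d10* share 10.7% of their stretches of 100 bases with *Cyp2d11*, and those of *Cyp2d9* share 4.0% with *Cyp2d10*. Exons of *Cyp2d9*, *Cyp2d10* and *Cyp2d12*, and of *Cyp4v3* below, overlap annotated genes on the same strand, so part of their reads may belong to those genes.

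Among the other 8 genes of family 2, 3 fell. *Cyp2s1*, an enzyme of epithelia outside the liver that dioxin induces through Ahr, fell to 108 ± 25.3 CPM in Str, against 146 ± 9.91 CPM in Con (log2 fold change -0.43, SE 0.10, adjusted p = 0.00552, edgeR). Its Con libraries were close together (131 to 160 CPM, median 147), and 7 Str libraries lay below them, between 72.8 and 120 CPM, with the other 3 (SV5, SL4 and SL5) at 136 to 142 CPM. *Cyp2j9* and *Cyp2j6* encode arachidonic acid oxidases and lie side by side on chromosome 4. *Cyp2j9* measured 1.24, 2.07 and 3.19 CPM in Str (lowest, median, highest) and 2.66, 3.19 and 4.70 CPM in Con (log2 fold change -0.66, SE 0.15, adjusted p = 0.00379, edgeR). *Cyp2j6*, which was more abundant, measured 40.0, 54.4 and 58.9 CPM in Str and 50.4, 59.6 and 72.6 CPM in Con (log2 fold change -0.21, SE 0.07, adjusted p = 0.0392, edgeR). The call of *Cyp2j6* was lost on leaving out CV2, CV3, CV6, CL3, CL6, SV1, SV2, SL1, SL2 or SL6 (adjusted p = 0.0538 to 0.0779).

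The other 5 genes did not pass. *Cyp2w1*, known from fetal colon and colon tumours, had a log2 fold change of -0.41 (adjusted p = 0.0636, edgeR) with 6 Str libraries below all Con libraries, and it was called in DESeq2 (adjusted p = 0.0421) and in edgeR without SL4 (0.0130) or SL5 (0.0246). *Cyp2f2*, the lung enzyme that activates naphthalene, *Cyp2t4* and *Cyp2u1*, a fatty acid hydroxylase, had log2 fold changes of -0.23, -0.13 and -0.54, and *Cyp2r1*, which starts the activation of vitamin D, had one of 0.10. Exons of *Cyp2s1*, *Cyp2f2*, *Cyp2t4* and *Cyp2u1*, and of *Cyp2c55* above, overlap annotated genes on the opposite strand, so part of their reads may belong there.

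**Figure D3:**
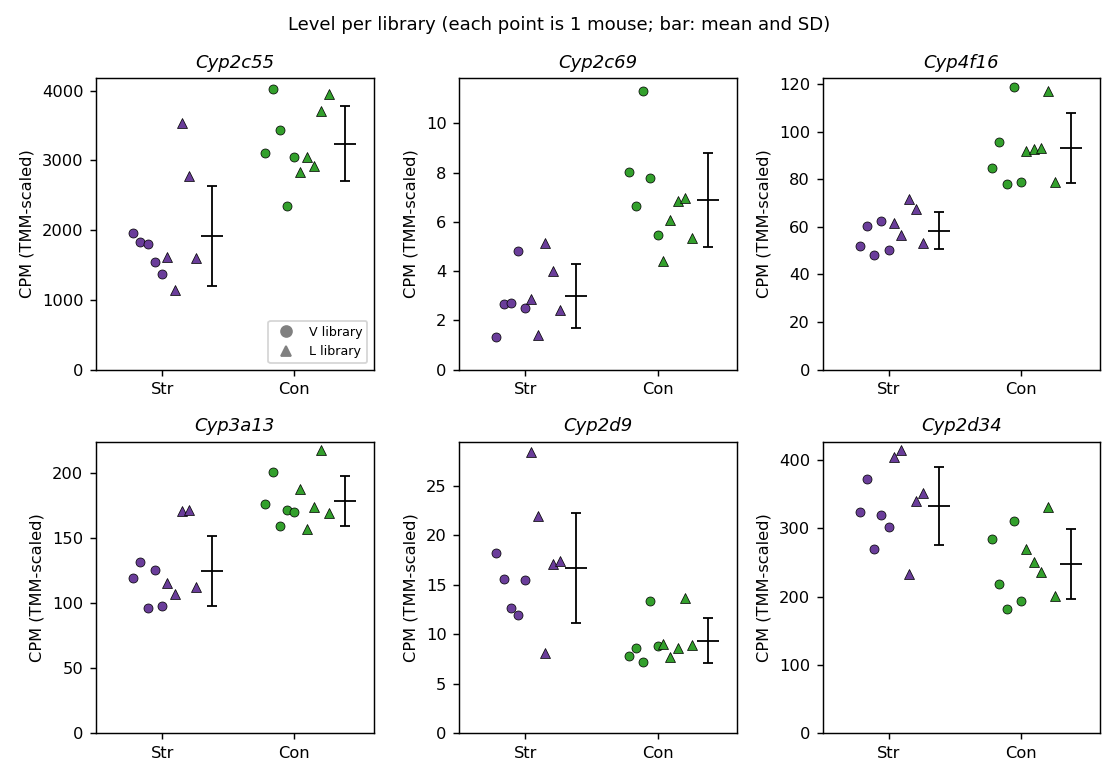
CPM (TMM-scaled) of 6 called genes in each library, Str left and Con right, with circles for V libraries, triangles for L libraries and the mean ± SD beside each group. *Cyp4f16* is the panel with no overlap (Str up to 71.8, Con from 78.1 CPM), while in the panels of *Cyp2c55* and *Cyp3a13* 8 of 10 Str libraries lie below the lowest Con library.

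In family 3, *Cyp3a13*, a drug and steroid oxidase of the mouse intestine, fell to 125 ± 26.9 CPM in Str, against 179 ± 18.97 CPM in Con. The Str libraries held 96.0, 118 and 172 CPM (lowest, median, highest) and the Con libraries 157, 173 and 218 CPM, and the 8 Str libraries other than SL4 and SL5 lay below all Con libraries. The log2 fold change of *Cyp3a13* was -0.52 (SE 0.10, adjusted p = 0.000911, edgeR). The gene stands on chromosome 5 from 137892932 to 137921619, apart from the cluster that holds *Cyp3a25* and *Cyp3a44*, known as liver enzymes of the same subfamily. *Cyp3a25* measured 0.0465, 0.199 and 4.61 CPM in Str and 0.147, 1.83 and 8.87 CPM in Con, a log2 fold change of -1.71 with a wide error (SE 0.70, adjusted p = 0.0968, edgeR). *Cyp3a44* had 0 counts in SL2, which allows up to 0.139 CPM there, and at most 4.22 CPM in Str and 3.903 CPM in Con (-0.85, SE 0.54, adjusted p = 0.298). Of the libraries left out singly, SL5 was the one without which both passed, *Cyp3a25* with an adjusted p of 0.00879 and *Cyp3a44* with one of 0.0231 (edgeR).

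In family 4, *Cyp4f16* was the 1 gene of the 36 with no overlap between the groups, every Str library below every Con library, which held for 0.126% of all genes. The Str libraries measured 48.2, 58.5 and 71.8 CPM (lowest, median, highest) and the Con libraries 78.1, 92.4 and 119 CPM, at an adjusted p of 2e-05 and a log2 fold change of -0.67 (SE 0.09, edgeR). No gene of the 36 had every Str library above every Con library (0.239% of all genes). *Cyp4f13* fell as well, to 28.0, 31.8 and 43.1 CPM in Str (lowest, median, highest), against 34.9, 40.1 and 45.9 CPM in Con (log2 fold change -0.30, SE 0.08, adjusted p = 0.00807, edgeR). In 7 of 10 Str libraries *Cyp4f13* was below all Con libraries.

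The Cyp4f enzymes hydroxylate leukotriene B4 and long fatty acids, and all 6 measured genes of the cluster on chromosome 17 had a negative log2 fold change. *Cyp4f14*, the mouse leukotriene B4 hydroxylase, was the most abundant of these per kilobase at 34.9 CPM per kb in Str and 40.4 CPM per kb in Con. It did not pass (-0.21, SE 0.08, adjusted p = 0.0697, edgeR), though it did without CV4 (adjusted p = 0.0437) or SL5 (0.0168). *Cyp4f40* (-0.20, adjusted p = 0.127), *Cyp4f17* (-0.28, adjusted p = 0.0869) and *Cyp4f39* (-0.20, adjusted p = 0.701), which makes the very long acids of the skin barrier, did not pass. *Cyp4f17* passed without CV1, SV5 or SL5 (adjusted p = 0.0370, 0.0470 and 0.0415). *Cyp4f39* had 0 counts in SV4, which allows up to 0.126 CPM, and at most 0.931 CPM in any library. As a sum the 6 genes held 197 to 273 CPM in Str and 266 to 339 CPM in Con.

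The upstream sequence of *Cyp4f16*, the gene of smallest p, is given from chr17:32536307-32536556 on the plus strand (RefSeq, GRCm38.p6). The RefSeq gene span begins at 32536545, so the last bases printed lie inside it. Capitals mark the longest stretch of this *Cyp4f16* sequence, of 74 bases, that the window of *Cyp4f37* also holds letter for letter. This upstream stretch is no measure of shared reads. As a separate measure, 9.7% of the stretches of 100 bases in *Cyp4f16* transcripts are shared with *Cyp4f37*, and reads from that relative could be counted here.
*Cyp4f16*: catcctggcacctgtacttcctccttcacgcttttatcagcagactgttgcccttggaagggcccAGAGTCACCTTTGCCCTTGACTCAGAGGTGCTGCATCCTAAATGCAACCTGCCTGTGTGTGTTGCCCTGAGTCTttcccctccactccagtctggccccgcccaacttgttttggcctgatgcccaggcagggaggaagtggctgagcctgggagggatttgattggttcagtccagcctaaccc

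Outside Cyp4f, family 4 held *Cyp4b1* and *Cyp4v3*. *Cyp4b1*, which activates plant furans and hydroxylates fatty acids, measured 1.33, 3.45 and 30.7 CPM in Str (lowest, median, highest) and 4.17, 16.2 and 35.5 CPM in Con. Of the Str libraries 6 lay below all Con libraries, while SL4 and SL5 lay well inside the Con range. The log2 fold change of -1.30 (SE 0.50) did not pass in edgeR (adjusted p = 0.0798) and passed in limma-voom (0.00515), and in edgeR it passed without SL4 (0.0432) or SL5 (0.00417). *Cyp4v3*, a fatty acid hydroxylase whose human counterpart is tied to a retinal disease, did not pass (-0.26, adjusted p = 0.135), with 9.02 to 16.8 CPM in Str and 10.1 to 18.2 CPM in Con, and passed without SL5 (0.0456).

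None of the families with narrow tasks held a called gene. *Cyp20a1*, *Cyp26b1*, *Cyp27a1* and *Cyp39a1* had log2 fold changes between -0.32 and 0.01, and none of the 4 passed in edgeR, DESeq2 or limma-voom, nor in edgeR before adjustment. *Cyp27a1*, which oxidises the sterol side chain in mitochondria, measured 10.3 to 20.9 CPM in Str and 11.2 to 20.9 CPM in Con. *Cyp39a1*, which acts on oxysterols on the way to bile acids, averaged 18.4 ± 2.59 CPM in Str and 18.3 ± 2.42 CPM in Con. *Cyp26b1*, which breaks down retinoic acid, was at 0.294 to 1.21 CPM in Str and 0.169 to 1.61 CPM in Con, too low for a small change to be seen.

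Some P450 genes varied together from mouse to mouse within each group. Each of the other 35 genes was set against *Cyp4b1*, chosen after its values were seen as the gene whose log2 levels spread most among those over 1 CPM per kb, within Str and within Con (70 relations, 100000 permutations, Benjamini-Hochberg over the 70). Within Str, 8 genes passed by Pearson's r, all positively, and 6 of them by Spearman's rho too. Within Con, 7 passed by r, all positively, and 6 by rho too. The relations were not computed for genes outside the P450 set, so these counts do not show a trait particular to it. *Cyp3a25*, *Cyp3a44*, *Cyp2c65* and *Cyp2d26* passed by both measures in both groups. For *Cyp3a25* r was 0.945 within Str (permutation p = 0.00022, adjusted p = 0.0022; rho 0.830, p = 0.00472, adjusted p = 0.0300) and 0.977 within Con (permutation p = 1e-05, the smallest these permutations can give, adjusted p = 0.0007; rho 0.952, p = 0.0001, adjusted p = 0.0035). For *Cyp2c65* r was 0.908 within Str (permutation p = 0.00022, adjusted p = 0.0022; rho 0.879, p = 0.00184, adjusted p = 0.0184) and 0.967 within Con (permutation p = 6e-05, adjusted p = 0.00175; rho 0.927, p = 0.00038, adjusted p = 0.00887). For *Cyp2d26* r was 0.875 within Str (permutation p = 0.00035, adjusted p = 0.00306; rho 0.842, p = 0.00354, adjusted p = 0.0300) and 0.809 within Con (permutation p = 0.00526, adjusted p = 0.0263; rho 0.806, p = 0.00685, adjusted p = 0.0400).

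Without the 2 libraries farthest from the median of *Cyp4b1*, SL4 and SL5 in Str and CV2 and CV4 in Con, r was 0.794 within Str and 0.971 within Con for *Cyp3a25*, 0.772 and 0.935 for *Cyp2c65*, 0.760 and 0.930 for *Cyp2d26* and 0.867 and 0.918 for *Cyp3a44*. *Cyp2c55* had an r of 0.900 within Str and 0.848 within Con (permutation p = 0.00046 and 0.00213, adjusted p = 0.00358 and 0.0115), and its rho of 0.745 within Con did not pass (p = 0.0174, adjusted p = 0.0872). By contrast *Cyp2d34* had an r of -0.418 within Str and -0.735 within Con (permutation p = 0.226 and 0.0162, adjusted p = 0.386 and 0.0630), so that no Cyp2d gene that rose passed in either direction. The letters V and L hold 5 libraries per group, and r was not computed within one letter. With the mean of each letter taken out within the group, an alternative added after seeing the data, r was 0.944 within Str and 0.981 within Con for *Cyp3a25*, 0.930 and 0.986 for *Cyp2c65*, 0.878 and 0.916 for *Cyp2d26* and 0.974 and 0.929 for *Cyp3a44*, given with no test. Cages are not known and cell makeup differs among libraries, and their part in these relations was not tested.

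**Figure D4:**
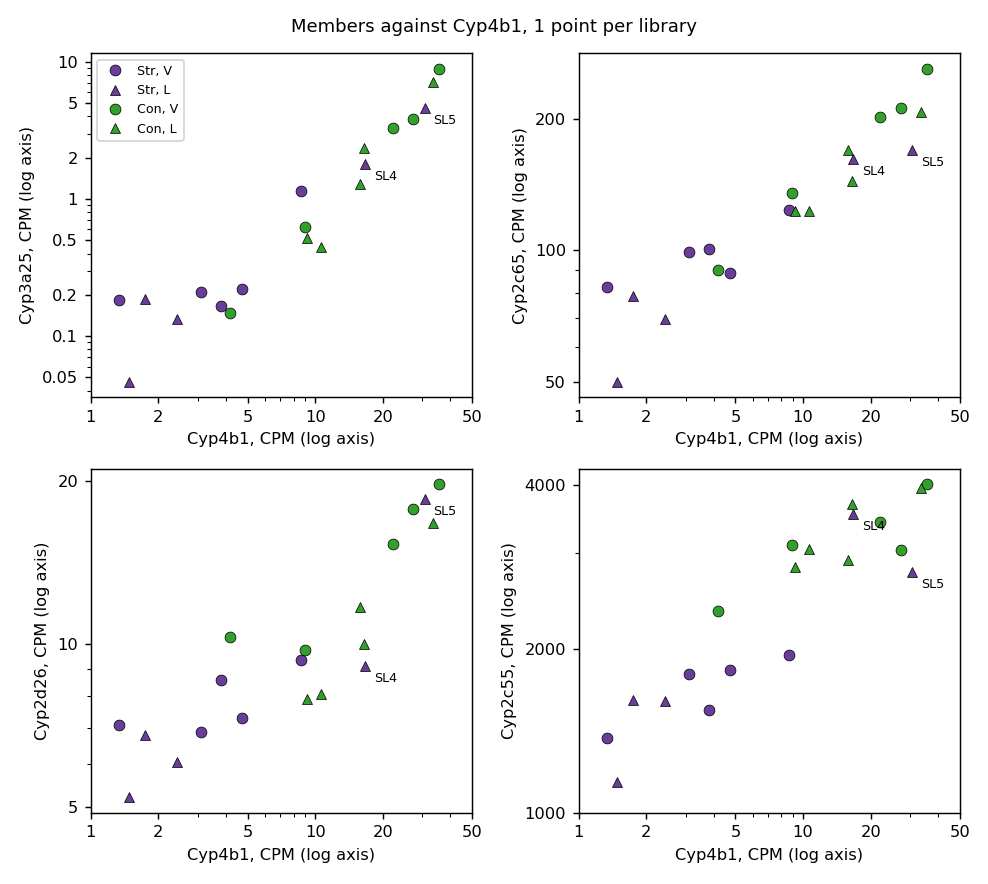
CPM of *Cyp3a25*, *Cyp2c65*, *Cyp2d26* and *Cyp2c55* (vertical, log axis) against CPM of *Cyp4b1* (horizontal, log axis), 1 point per library, purple for Str and green for Con, circles for V and triangles for L. Levels go up together within each group, and the Str libraries SL4 and SL5 (16.7 and 30.7 CPM of *Cyp4b1*) lie among the Con points.

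The same 2 libraries stood out when the called genes were counted library by library. Of the 10 genes that fell, the number below the lowest Con library had a median of 7.5 over the Str libraries, with 10 in SL2 and in SL6, 3 in SL5 and 1 in SL4. Of the 3 genes that rose, all 3 exceeded the highest Con library in SV2, SL1, SL2, SL5 and SL6, and none did in SV4, SV5 and SL4. SL5 thus had all 3 Cyp2d genes above the Con range and 7 of the 10 genes that fell inside it or above. The summed level of the 36 genes was 2312, 2898 and 4859 CPM in Str (lowest, median, highest), against 3778, 4443 and 5594 CPM in Con, with SL4 as the highest Str library and SL5 next at 4293 CPM.

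More P450 genes were called among V libraries than among L libraries. Within V (5 Str against 5 Con) edgeR called 1 of the 36 genes higher and 14 lower, against 5.08 and 5.15% of all genes. Within L it called 0 of 36 in either direction, against 0.0567% (higher) and 0.0126% (lower) of all genes. Where p was not adjusted, 4 of the 36 genes were higher and 8 lower within L, against 9.44 and 7.36% of all genes. On the L libraries DESeq2 called 2 higher and 3 lower of 26 genes to which it gave an adjusted p, against 4.1 and 1.45% of all genes, and limma-voom called 1 and 3 of 36, against 2.62 and 1.04%. For 30 of the 36 genes, among them all 10 that fell, the log2 fold change was lower in V than in L. The share of all genes lower in V than in L was not computed, so this count does not show a trait particular to P450 genes. The log2 fold change was -2.18 in V and -0.69 in L for *Cyp4b1*, -1.49 and -0.91 for *Cyp2c69*, -1.02 and -0.33 for *Cyp2j9* and -0.91 and -0.62 for *Cyp2c55*. SL4 and SL5 are both L libraries. The interaction of group and letter called 0 of the 36 genes and 0 of all genes in edgeR, the other tools not being run for it. Unadjusted, 2 of the 36 and 918 of all genes had a p under 0.05 (*Cyp4v3*, p = 0.0133, and *Cyp2j9*, p = 0.0174), and no single gene is shown to differ between the letters.

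**Figure D5:**
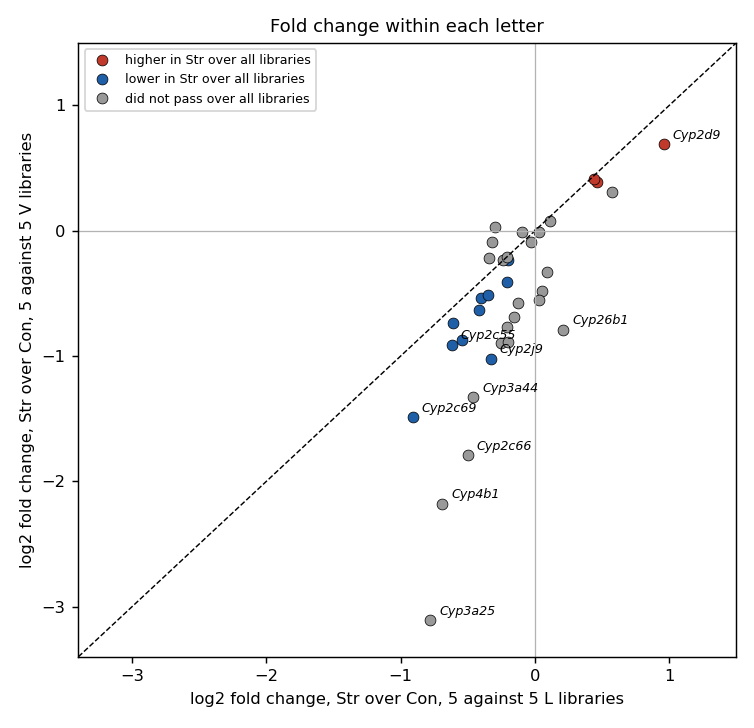
Log2 fold change (Str over Con, edgeR) within the 5 against 5 V libraries (vertical) and within the 5 against 5 L libraries (horizontal), 1 point per gene, red and blue for genes called higher and lower over all libraries. Of the 36 points 30 lie below the dashed line of equal change, farthest for *Cyp3a25* (-3.11 in V, -0.78 in L). The share of all genes below that line was not computed.

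Genes that serve P450 enzymes were described from lists composed with results of these data already known, so their counts are not independent support for a direction. The counts below stand against 7.72% of all genes lower and 8.94% higher, and 3.83 and 5.38% without the 4 Con libraries with hepatocyte transcripts. Of 10 measured electron donors and haem-binding partners, 4 fell (40.0%) and 6 did not pass. *Fdxr* encodes the reductase that feeds mitochondrial P450 enzymes through adrenodoxin. *Fdxr* fell to 12.1 ± 1.15 CPM in Str, against 16.2 ± 1.27 CPM in Con, with every Str library below every Con library (log2 fold change -0.43, adjusted p = 5.96e-05, edgeR). *Cyp27a1*, described above as mitochondrial, did not pass (-0.11, adjusted p = 0.616, edgeR). *Fdx1*, which encodes that adrenodoxin (-0.23), *Pgrmc1*, a haem-binding partner (-0.27), and *Cyb5a*, cytochrome b5 (-0.19), fell too. *Por*, the reductase of the microsomal P450 enzymes, did not pass, at 233 CPM in Str and 261 CPM in Con (-0.17, adjusted p = 0.126). Without the 4 Con libraries with hepatocyte transcripts, 1 of the 10, *Fdxr*, was still called (adjusted p = 0.00129). Of 12 genes of haem synthesis and breakdown 2 (16.7%), *Urod* (-0.24, adjusted p = 0.00214) and *Uros* (-0.17, adjusted p = 0.0292), neighbours in the pathway, fell. Without the 4 Con libraries *Urod* was called (-0.24, adjusted p = 0.0112) and *Uros* was not (-0.18, adjusted p = 0.0765, edgeR).

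Of the pathway lists, the enzymes that act after P450 oxidation had the highest share of falls. Of 52 conjugation and hydrolysis enzymes 31 fell (59.6%) and 0 rose (38 and 0 at an unadjusted p under 0.05, and 31 and 0 in DESeq2), with a median log2 fold change of -0.33. *Mgst2* (-0.38, adjusted p = 0.000127), *Gstt3* (-0.25, adjusted p = 0.000399) and *Mgst3* (-0.35, adjusted p = 0.000575) are glutathione transferase genes. *Ephx2*, the soluble epoxide hydrolase that opens the fatty acid epoxides made by P450 enzymes, fell to 18.9 ± 2.71 CPM in Str, against 25.1 ± 2.57 CPM in Con (-0.41, adjusted p = 0.000902, edgeR). Of the 52, 22 were called lower without the 4 Con libraries. Of 18 other oxidases of small molecules 7 fell (38.9%, and 5 without the 4 Con libraries), *Aldh1b1* (-0.33), *Aldh3b2* (-0.36), *Aldh1a1* (-0.81) and *Adh5* (-0.46) among them, and *Xdh*, xanthine oxidase, rose to 141 ± 42.4 CPM in Str, against 79.1 ± 10.4 CPM in Con (0.84, adjusted p = 0.00016, edgeR).

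Of 25 transcription factors that control P450 genes 5 fell (20%) and 1 rose (4%). *Nfe2l2*, the regulator of detoxifying enzymes, fell to 185 ± 18.6 CPM in Str, against 227 ± 14.3 CPM in Con (-0.29, adjusted p = 0.000738, edgeR), and 9 of 10 Str libraries lay below all Con libraries. *Vdr*, the vitamin D receptor (-0.25), *Tef*, a clock factor (-0.58), and *Nr5a2* (-0.19) fell, and *Nr1h4*, the bile acid receptor, rose (0.34, adjusted p = 0.0197, edgeR). Without the 4 Con libraries only *Nfe2l2* of these was called (adjusted p = 0.0112). Of factors named here for their role after their values were seen, the xenobiotic receptors did not pass, *Ahr* at 27.3 CPM in Str and 26.7 CPM in Con (log2 fold change 0.03, adjusted p = 0.651) and *Nr1i2* at 122 CPM in Str and 129 CPM in Con (-0.08, adjusted p = 0.231). Neither did *Hnf4a* (-0.02, adjusted p = 0.799). The lowest log2 fold change of the 25 was that of *Ppara* (-0.59), at 10.3 to 35.8 CPM in Str and 20.4 to 39.0 CPM in Con. SL5 and SL4 were its highest Str libraries (35.8 and 31.1 CPM).

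Genes that share substrates with these P450 enzymes went both ways. Of 21 retinoid genes 3 rose (14.3%) and 2 fell (9.52%), and of 17 arachidonic acid genes 1 rose (5.88%) and 2 fell (11.8%). Over all genes 8.94% were higher and 7.72% lower, and a difference of these 2 lists from all genes was not tested. In the retinoid list of 21 genes *Dhrs9*, *Rdh16* and *Rdh10*, which oxidise retinol, rose by 1.28, 1.07 and 0.35 on the log2 scale (adjusted p = 2e-05, 3.43e-05 and 0.00263, edgeR), while *Lrat*, which stores retinol as esters (-0.77), and *Aldh1a1*, which makes retinoic acid (-0.81), fell. In the list of 17 arachidonic acid genes *Pla2g4f*, a phospholipase, rose (0.99, adjusted p = 0.000345), and *Hpgd* (-0.55, adjusted p = 0.000488) and *Ptgr2* (-0.19), which break down prostaglandins, fell. In the steroid and bile acid list of 29 genes 10 fell (34.5%), led by *Hsd3b3* (-0.60), *Hsd3b2* (-0.54), *Akr1c19* (-0.79) and *Stard5* (-0.24), and *Srd5a2* rose (0.50, adjusted p = 0.0233, edgeR). Of the 29, 7 were called lower and 0 higher without the 4 Con libraries, with *Srd5a2* at an unchanged 0.50 and an adjusted p of 0.0999. In that fit 3 retinoid genes were called higher and 3 lower, and 1 arachidonic acid gene higher and 2 lower. *Cyp51*, *Tbxas1* and *Ptgis*, P450 enzymes outside the naming rule, did not pass, with log2 fold changes of 0.09 to 0.12 (0 of 3 also in DESeq2, limma-voom and at an unadjusted p under 0.05). Over all 183 measured genes of the lists 62 fell and 7 rose, and 41 and 5 without the 4 Con libraries.

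Markers of some other cells moved with the groups as well. Of 8 goblet and deep crypt secretory markers 2 fell (25%), and of 7 enteroendocrine markers 1 (14.3%), against 7.72% of all genes. Neither list held a gene that rose. No crypt stem (5 measured), tuft (5), fibroblast (7) or endothelium and muscle (7) marker was called. Summed, 5 Str libraries lay below all Con libraries for crypt stem markers, 4 for goblet and 0 for fibroblast markers. The 6 measured small intestine enterocyte markers of 8 listed summed to 361, 431 and 579 CPM in Str (lowest, median, highest) and 461, 580 and 648 CPM in Con, with 7 Str libraries below all Con libraries and SL4 and SL5 as the highest of the Str libraries (579 and 509 CPM). *Fabp2*, a fatty acid binding protein, made up much of this sum and fell (-0.61, adjusted p = 0.000836, edgeR), as did *Alpi* (-0.54). The other 4 did not pass, among them *Sis* (-1.86, the lowest of the list), *Slc5a1* (-0.05) and *Fabp6* (0.43). Levels of *Sis* ran from 0.368 to 14.4 CPM in Str and from 0.588 to 26.3 CPM in Con, with SL5 and SL4 (4.56 CPM) highest in Str. The 5 markers other than *Fabp2* summed to 209 to 281 CPM in Str and 237 to 300 CPM in Con. The 5 measured leukocyte markers of 14 listed summed to 51.2 to 164 CPM in Str and 42.9 to 61.5 CPM in Con, with 9 Str libraries above all Con libraries, and SL4 (51.2 CPM) and SL5 (70.8 CPM) as the lowest of the Str libraries. *Ly6g* carried most of this difference, at 29.9 to 123 CPM in Str and 17.3 to 38.4 CPM in Con, and the sum without *Ly6g* and *Cd14* was 5.41 to 8.19 CPM in Str and 4.66 to 8.92 CPM in Con. *Ptprc*, which encodes CD45, was at 0.905 CPM in Str and 1.16 CPM in Con and did not pass (adjusted p = 0.359). Of these 5 leukocyte markers 3 rose, *Ly6g* (1.39), *Cd68* (0.56) and *Cd14* (0.46), and *Itgam* had -0.16 (not passed). The 9 further listed genes, such as the T cell gene *Cd3e*, the B cell gene *Cd79a* and the neutrophil gene *S100a8*, were not among the genes tested. The part of such shifts in the P450 changes was not tested.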

How the data were processed

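RNA-seq was made of colonic IECs from 10 Str and 10 Con mice, by rRNA removal and a directional library kit. The authors aligned paired-end reads to GRCm38.p4 with STAR and deposited raw counts per gene from HTSeq with the NCBI annotation, whose strand setting is not given in the sources used here. Reads shared by near-identical P450 genes can be dropped or split by such counting. A second set of 20 scaled columns was not used. Columns were assigned to Str or Con by their first letter, and single mice were not matched to columns.

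Counts were tested with the quasi-likelihood test of edgeR 4.0.16 (R 4.3.3), TMM, all 20 libraries and group as the 1 term, with a mean count minimum of 4 that removed no gene, since the lowest mean count was 6. DESeq2 1.42.0 and limma 3.58.1 (voom, quality weights) were alternatives, as were RLE factors, library sizes alone, filters, the letter as a covariate, V or L alone, each library left out and the 4 Con libraries left out. A hepatocyte library had summed markers over 5 times the median. Scripts were tested on simulated data. Correlations used log2(CPM + 0.1), scipy 1.17.1 and 100000 permutations. CPM per kb used the union of exons of the reference annotation on GRCm38. Sequences and windows are from RefSeq (GRCm38.p6), with 29 of 36 genes matched, and shared stretches are of 100 bases.

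Named genes were every called P450 gene, the 10 most abundant per kilobase, those with no overlap between groups and the other members of their families, and from each pathway list up to 4 called genes of smallest p per direction. The members and lists were chosen with earlier results of these data known.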

Additional observations from a re-analysis of the deposited data

Results flagged for a closer look

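In each gene and group the highest and lowest of 10 libraries were compared with the rest by Dixon's gap test on CPM. Of 72 combinations 9 stood out. Chance alone marks about 1 in 20 groups of normal values. The 72 share the same libraries and some of the genes vary together, so an excess over chance cannot be read from the 9. The Str library SL5 was far above the other Str libraries for 7 genes. It had 2.28 CPM of *Cyp2c66*, with the next Str library at 1.03 CPM. For *Cyp3a25* it had 4.61 CPM (next 1.81), for *Cyp3a44* 4.22 CPM (next 1.62) and for *Cyp4b1* 30.7 CPM (next 16.7). *Cyp2d26* was at 18.6 CPM in SL5 (next 9.35), *Cyp2d22* at 27.4 CPM (next 22.4) and *Cyp4f14* at 108 CPM (next 89.7). Of these 7 genes, all but *Cyp2d22* were called lower in edgeR once SL5 was left out. *Cyp20a1* was highest in SV6, at 20.3 CPM with the next Str library at 17.9 CPM. Among Con libraries 1 value stood out, 11.3 CPM of *Cyp2c69* in CV3, with the next at 8.02 CPM.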

How the results depend on the processing

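With any 1 library left out, edgeR called 3 to 4 P450 genes higher and 8 to 19 lower, and 6 to 9 pathway genes higher and 49 to 71 lower. The 19 came without SL5, where 10.1% of all genes were called lower, and the 8 without CV3, SV1, SL2 or SL6. Shares of all genes called are not given for the other fits with 1 library left out. A change in those P450 counts thus cannot be told from a change in calling over all genes. limma-voom called 16 P450 genes lower. On V libraries alone edgeR called 1 higher. On L libraries alone edgeR called 0 P450 genes and 0 pathway genes in either direction, limma-voom called 1 P450 gene higher and 3 lower and 12 pathway genes lower, and DESeq2 called 3 P450 genes and 8 pathway genes lower. These fits have 5 libraries a group. Without the 4 Con libraries 41 pathway genes were called lower. The cause of each of these shifts was not tested. With library sizes alone the median of all genes moved by -0.042, and edgeR called 3 P450 genes higher and 13 lower. RLE factors, the letter as a covariate, and the fits without a low count filter or with filterByExpr gave 3 higher and 10 lower. Shares of all genes called in these fits and with library sizes alone are not given either.

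The sign of 8 genes that were not called turned in some fits. On L libraries alone the log2 fold change was 0.21 in edgeR and 0.26 in limma-voom for *Cyp26b1*, 0.09 in edgeR and 0.10 in DESeq2 and limma-voom for *Cyp27a1*, 0.03 in edgeR and DESeq2 for *Cyp4v3*, 0.05 in edgeR for *Cyp4f39* and 0.01 in limma-voom for *Cyp2c67*. On V libraries alone it was 0.03 for *Cyp2t4* and -0.01 for *Cyp39a1*. *Cyp39a1* also had -0.04 with library sizes alone and ran from -0.03 to 0.05 with 1 library left out, and *Cyp2d22* from -0.11 to 0.0033, positive without CL4. Each of the 13 called genes kept its direction in every fit run.

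A replicate block was fitted on the 8 pairs of Str and Con libraries that share a letter and number. It called 2 P450 genes higher and 17 lower, against 2 and 15 in the same 16 libraries without the block. The share of all genes called is not given for either fit. The number was not shown to mark a pairing, since 4 of 8 pairs correlated over 0.1 and 1 correlated best with its own name. A check on 8 pairs cannot exclude a pairing. The fits over L with other tools, DESeq2 without the 4 Con libraries, the fit without the block and the choice of low hepatocyte markers were added after seeing the data. Genes averaging under 1 CPM gave no calls in edgeR over all libraries, and their small changes were not detectable at this depth.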
